A study of Mus musculus with 12 samples.

Results

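The genes described here encode the coats, GTPases, fusion proteins and cargo receptors of vesicle transport between the endoplasmic reticulum (ER) and the Golgi. They were chosen by gene symbol alone, which gave 37 of the 24255 genes in the table. They were subunits of the COPI and COPII coats, the COPII regulators Sar1, Sec12 (Preb) and Sec16, the Sec22 proteins and the p24 (Tmed) receptors. RNA-Seq had been done on 12 libraries of 20 fully grown oocytes (FGOs) at the germinal vesicle stage, taken from C57BL/6 females of 3 weeks at 46 h after priming with 5 IU of PMSG. All 4 groups had 3 libraries, and every female had been primed in the same way. WT oocytes carried intact Dpagt1, and MUT oocytes came from females homozygous for the D166G point mutation, which arose in an ENU screen and is present in every cell of the body. GcKO oocytes came from Dpagt1F/F females with Gdf9CRE/+, which deletes Dpagt1 in oocytes, and AmcKO oocytes from Dpagt1F/F females with Amhr2CRE/+, which deletes it in granulosa cells, so that the oocytes of AmcKO keep the gene. The same 3 WT libraries were the control of all 3 mutant groups. The sources do not say which females the pooled oocytes of a library came from, so the p-values measure the spread between libraries, which may be technical.

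COPII is the coat that carries newly made protein out of the ER. The GTPase Sar1, loaded with GTP by Preb at sites marked by Sec16, recruits the inner coat of Sec23 and Sec24, which picks the cargo, and then the outer cage of Sec13 and Sec31. COPI is the coat of the opposite direction, a complex of alpha, beta, beta prime, gamma, delta, epsilon and zeta subunits that returns escaped ER proteins and receptors from the Golgi. The p24 proteins pass between both compartments in these vesicles as receptors and organizers of cargo, and Sec22b is a SNARE that drives the fusion of the vesicle with its target. DPAGT1 makes the first step of N-glycosylation in the ER, and the zona pellucida proteins of the growing oocyte are among the glycoproteins that leave by this route.

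Of the 37 genes, 33 passed the minimum of 1 FPKM (fragments scaled to transcript length and library size) in at least 1 library and were tested. Sec31b, Tmed6, Tmed8 and Tmed11 were listed at 0 in all 12 libraries. All 14 oocyte markers were present in every group, and the WT libraries summed to 43790 to 49240 FPKM of them, the AmcKO libraries to 33690 to 44280, the MUT libraries to 18680 to 19370 and the GcKO libraries to 16820 to 24120. Of 14 granulosa and cumulus cell markers, Amh, Amhr2, Foxl2 and Lhcgr were at 0 in all libraries, and the list summed to between 11.8 and 22.7 FPKM in AmcKO libraries, 14.8 and 29.3 in GcKO, 17.8 and 31.6 in MUT and 17.6 and 23.1 in WT. Of the 14, 4 were above 0 in at least 1 library of WT, 10 in MUT, 9 in GcKO and 7 in AmcKO. Detection differed over all genes too. Each WT library had 9359 to 9622 genes above 0, each MUT library 11208 to 11467, GcKO 10733 to 11608 and AmcKO 10399 to 10921. Gja1, the gap junction protein of granulosa cells, was at 0 in the WT libraries and at 2.35 to 4.26 FPKM in MUT. It was at 0.453, 1.69 and 0.353 FPKM in GcKO and at 0, 0 and 0.285 in AmcKO. Inhbb and Fst were also at 0 in the WT libraries. In MUT, Inhbb was at 0.542, 0.833 and 0.202 FPKM and Fst at 0.314, 0 and 0.352. Kitl did not rise with Gja1 in MUT, at 0.971, 0.767 and 0.620 FPKM against 1.51, 1.37 and 0 in WT. Nr5a2 overlapped between these groups, at 1.07, 1.77 and 2.87 FPKM in MUT and 0.928, 1.58 and 1.80 in WT. The part of these markers in the results was not tested. Dpagt1 itself was at 0 in WT and AmcKO, at 0.878, 0.408 and 0.985 FPKM in MUT and at 0, 0.366 and 0 in GcKO, so its deletion could not be checked at this depth.

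The summed FPKM of a library differed between the groups, with 1167362 to 1226005 in WT, 883256 to 1107925 in AmcKO, 589617 to 611597 in MUT and 482314 to 684212 in GcKO. Values were compared as deposited. Setting every library to the same sum moved the median change of all genes tested against WT from 0.12 to 0.71 for MUT and from 0.12 to 0.74 for GcKO on the log2 scale, and directions that depend on this are given beside the gene. The steps between low values showed that a single fragment weighed 2.28 to 2.66 times as much in WT as in MUT replicate 2, and 1.00 to 1.21 times in MUT, so low transcripts were less precise in WT. FPKM are already scaled to library size, so these sums measure neither the number of cells nor the RNA per cell. Whether RNA per oocyte differed between the groups was not tested.

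Across the 12 libraries the transcripts of this pathway spanned a wide range of levels, and a single member dominated several of the steps. Sar1b had the highest mean level at 404 FPKM, followed by Copz1 at 260.2, Sec22a at 166 and Tmed10 at 89.4. Below them were Sec13 at 53.0, Copz2 at 40.8, Tmed2 at 36.6, Sec22b at 35.8 and Arcn1 at 32.9 FPKM, and the lowest tested member was Tmed1 at 0.419. In WT, 10 of the 33 tested members had a mean under 1 FPKM, 11 from 1 to 10, 8 from 10 to 100 and 4 over 100. The members together made up 0.109 to 0.122% of the summed FPKM in WT, 0.121 to 0.146% in AmcKO, 0.179 to 0.186% in MUT and 0.164 to 0.176% in GcKO. The heat map of all tested members shows these levels by library.

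**Figure D1:**
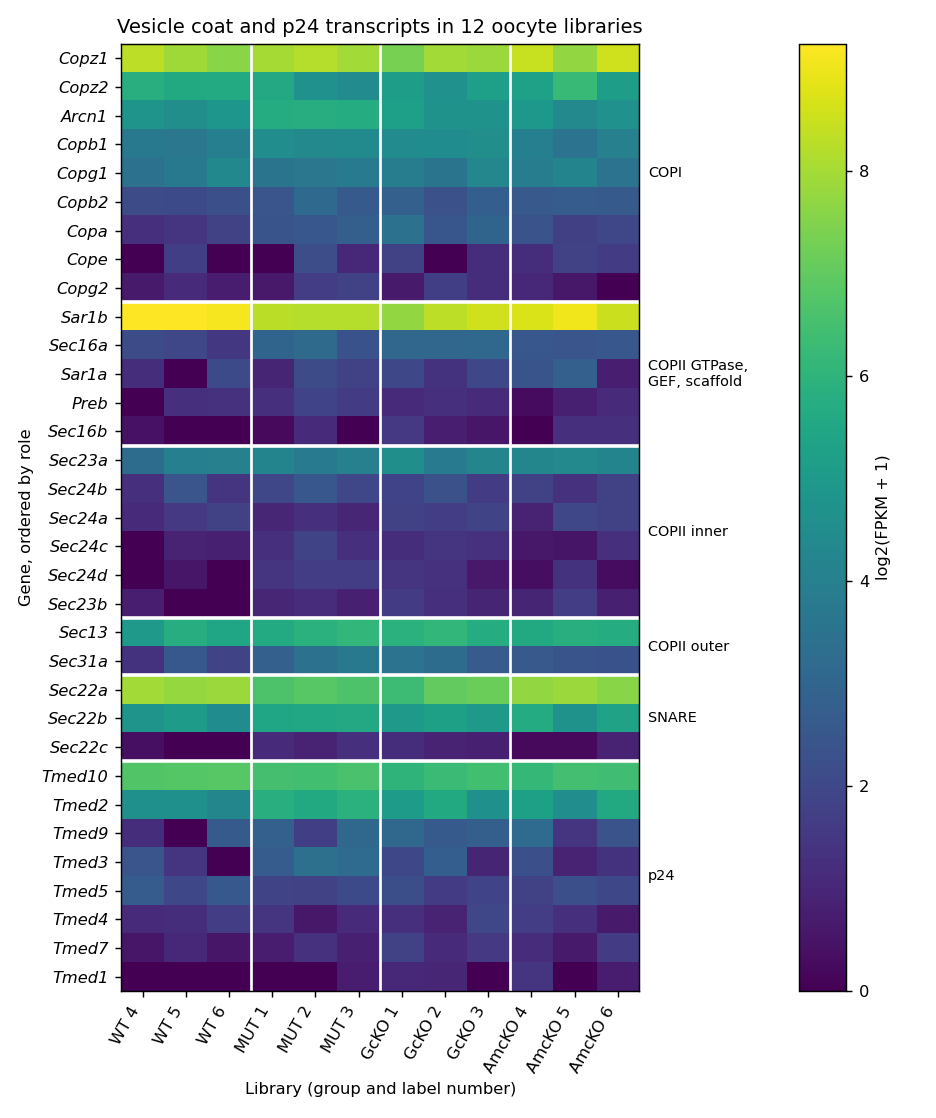
Level of the 33 tested genes as log2(FPKM + 1) in each of the 12 libraries, with genes ordered by role and then by mean level, and white lines between groups and roles. Sar1b, Copz1, Sec22a and Tmed10 are the brightest rows, and Arcn1 is brighter in the 3 MUT libraries than in the others.

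The comparison of MUT with WT asks which transcripts differ in oocytes of D166G-Dpagt1 females. Of the 33 tested members, 10 rose in MUT and 2 fell (limma on log2(FPKM + 1), adjusted p under 0.05), where 9.46% of all 11233 genes tested were called higher and 11.3% lower. The risers were Arcn1, Copa and Copb1 of COPI and Sec16a, Sec24d and Sec31a of COPII. Sec22b and Sec22c of the Sec22 proteins and Tmed2 and Tmed3 of the p24 receptors also rose. Sar1b and Sec22a fell, and under the same-sum scaling the log2 values of Sar1b and Sec22a were 0.02 and -0.15, with adjusted p = 0.914 and 0.363 in limma. The median log2 fold change of the 33 members was 0.52, against 0.12 over all genes tested. In GcKO against WT, 4 members rose (Copa, Copb1, Sec16a and Sec31a) and 3 fell (Sar1b, Sec22a and Tmed10), where 8.71% of all genes were called higher and 11.4% lower, and the median was 0.48 against 0.12. Under the same-sum scaling 21 members rose in MUT and 20 in GcKO and none fell, where 41.3% and 42.4% of all genes were called higher and 2.23% and 2.14% lower. After quantile normalization the counts were 6 higher and 1 lower in MUT (6.7% and 6.41% of all genes) and 4 and 0 in GcKO (6.15% and 5.92%). With the trend of change on abundance removed, an alternative chosen after seeing the data, they were 5 and 0 in MUT (5.5% and 6.38%) and 3 and 0 in GcKO (4.84% and 5.9%). The same WT libraries enter both comparisons.

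**Figure D2:**
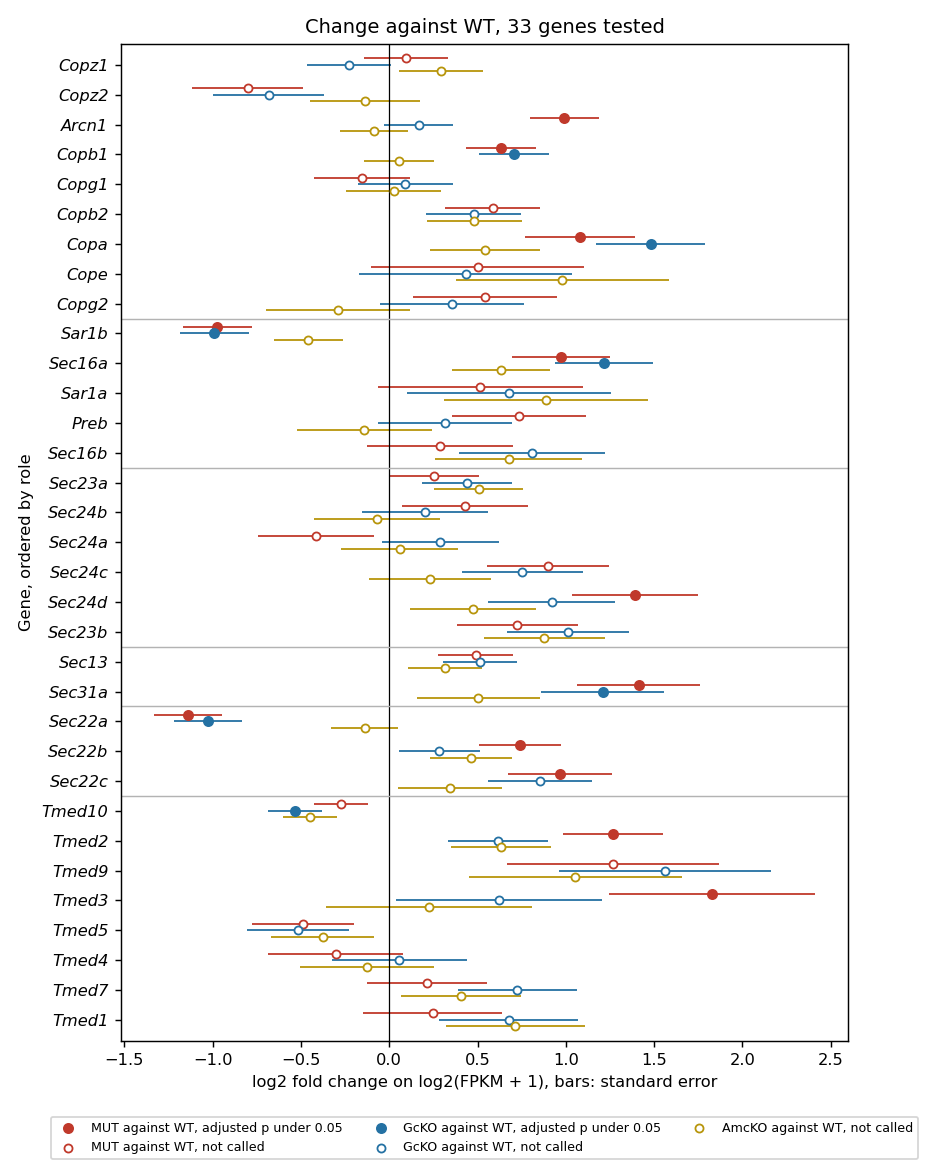
Log2 fold change against WT of each tested gene on the log2(FPKM + 1) scale, with the standard error as a bar, for MUT (red), GcKO (blue) and AmcKO (yellow), where filled points passed an adjusted p under 0.05. Copa, Copb1, Sec16a and Sec31a are filled on the right for both MUT and GcKO and Sar1b and Sec22a on the left, which is the direction without the same-sum scaling, and no AmcKO point is filled.

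The direction of a member followed its level in part. Among the members with a mean under 10 FPKM, 6 of 21 rose in MUT and none fell, where 8.76% of all genes of that level were called higher and 1.97% lower. From 10 to 100 FPKM, 4 of 9 rose, where 14% of such genes were called higher and 20.2% lower. Of the 3 members over 100 FPKM, 2 fell, as did 68.1% of all genes of that level, and none rose, where 2.61% did. The third was Copz1. For GcKO the counts were 3 of 21 higher and 0 lower (8.31% and 1.82% of all genes of that level), 1 of 9 higher and 1 lower (12.4% and 20.4%), and 0 of 3 higher and 2 lower (1.7% and 71%). Without overlap between libraries, 13 members lay above WT in MUT and 4 below, where 20.2% and 16.9% of all genes did. In GcKO 12 lay above and 4 below, where 18.2% and 16% did. The Spearman correlation of log2 fold change with mean level, across genes that share their libraries, was -0.22 over the 33 members and -0.23 over all genes in MUT, and -0.51 and -0.25 in GcKO. In the plot of change against level, the members lie within the cloud of all genes.

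**Figure D3:**
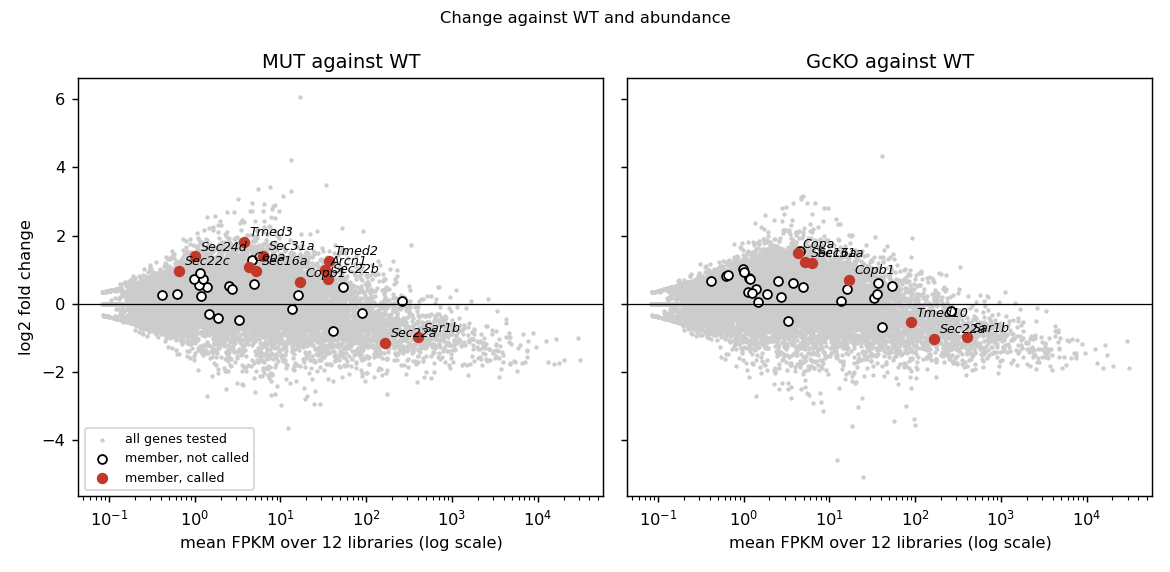
Log2 fold change against WT over the mean FPKM of the 12 libraries (log axis) for MUT (left) and GcKO (right), with all 11233 tested genes in grey, called members in red and other members as open circles. The called members under 100 FPKM lie above 0 except Tmed10 in GcKO, and Sec22a and Sar1b lie below 0 with most genes of their level, a direction that was not kept for Sar1b in either group, or for Sec22a and Tmed10 in GcKO, when libraries were scaled to the same sum.

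Upstream sequences are shown for Copb1 and Sec24d, which were picked because they rose in MUT and hold an ER stress motif, and for Sar1b and Sec22a, which fell as deposited. This choice is no contrast between risers and fallers, since the other called risers with a promoter (Copa, Sec16a, Sec22b, Sec22c, Sec31a and Tmed3) do not hold that motif either. RefSeq promoters (GRCm38.p6) were found for 33 of the 37 genes, which left Arcn1, Tmed2, Tmed7 and Tmed11 unsearched, and the 250 bases before the start were searched on both strands. The core of the unfolded protein response element, TGACGTGG, is the motif bound by XBP1 and ATF6, the transcription factors of the response to unfolded protein in the ER. Of the 33 genes with a promoter, it was present in Copb1, Sec16b and Sec24d, and in 0.563% of all 32851 promoters. Members were counted by gene and the background by promoter, and a gene can have more than a single promoter, as Sec31a did. For every motif, these shares are therefore not in the same unit. Capitals mark each motif match, and every line runs 5′ to 3′ on the strand of the gene up to 18 bases before its start.
Copb1: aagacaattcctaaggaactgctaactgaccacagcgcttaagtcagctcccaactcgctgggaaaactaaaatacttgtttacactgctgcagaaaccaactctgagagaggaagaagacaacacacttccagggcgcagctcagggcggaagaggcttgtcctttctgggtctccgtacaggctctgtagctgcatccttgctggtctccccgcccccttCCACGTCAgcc
Sec24d: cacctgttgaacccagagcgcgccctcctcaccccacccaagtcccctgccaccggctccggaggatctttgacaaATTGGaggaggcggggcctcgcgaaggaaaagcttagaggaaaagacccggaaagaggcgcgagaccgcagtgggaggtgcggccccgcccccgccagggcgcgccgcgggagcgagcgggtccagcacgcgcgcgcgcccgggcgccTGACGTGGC
Sar1b: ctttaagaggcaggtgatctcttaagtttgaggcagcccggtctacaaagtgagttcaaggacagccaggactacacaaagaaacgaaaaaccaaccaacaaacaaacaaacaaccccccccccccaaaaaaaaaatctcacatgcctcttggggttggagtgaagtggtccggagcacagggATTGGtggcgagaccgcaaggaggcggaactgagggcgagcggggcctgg
Sec22a: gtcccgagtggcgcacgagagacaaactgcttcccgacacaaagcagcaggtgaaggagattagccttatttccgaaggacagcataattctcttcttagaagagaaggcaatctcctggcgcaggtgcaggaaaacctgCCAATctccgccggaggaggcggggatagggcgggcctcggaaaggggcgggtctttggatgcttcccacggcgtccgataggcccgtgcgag
The Copb1 sequence is chr7:114254698-114254930 on the minus strand, and its capitals are the same core read on the opposite strand, with the first base at -28. For Sec24d, at chr3:123267246-123267478 on the plus strand, the core begins at -26 and runs into the Golgi stress element core, ACGTGGC, which begins at -24. Both matches lie in the last 14 and 24 bases shown for Copb1 and Sec24d, which GENCODE M21 counts as part of the first exon. The capitals ATTGG in Sec24d are a CCAAT box read on the opposite strand, with the first base at -174. Sar1b (chr11:51763413-51763645, plus strand) and Sec22a (chr16:35363936-35364168, minus strand) show only a CCAAT box, CCAAT, which stands in 15 of these 33 genes and 33.8% of all promoters. In Sar1b the box is read on the opposite strand, as ATTGG. GENCODE M21 places Sec24a at chr11:51692264-51763634 on the minus strand. Most of the Sar1b stretch, with this box, therefore lies inside Sec24a. The Golgi stress element core was found in 5 members (Sar1a, Sec16b, Sec24c, Sec24d and Tmed3) and 2.02% of all promoters. The longer ER stress elements ERSE and ERSE-II and the amino acid response element TGATGNAAT were in no member, and in 0.113%, 0.0304% and 0.816% of all promoters. The cAMP response element TGACGTCA was in Cope and in 1.55% of promoters. A match is a description of these letters and not of binding.

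The COPI coat had 9 members, all tested, of which 3 rose in MUT and 2 in GcKO. Arcn1, the delta subunit, had the tightest response of the coat, with 26.5, 22.7 and 28.1 FPKM in WT and 51.2, 53.1 and 51.7 in MUT. Its values were 36.0, 25.9 and 25.97 FPKM in GcKO and 29.4, 19.5 and 24.5 in AmcKO. The MUT libraries thus stood above all 9 others, while the values of GcKO and AmcKO overlapped those of WT. Arcn1 rose by a log2 fold change of 0.99 (SE 0.19, adjusted p = 0.00295, limma) in MUT, and the rise passed the threshold under all 15 alternatives tried. In GcKO the log2 fold change was 0.17 (adjusted p = 0.579), and GcKO against MUT gave -0.82 with adjusted p = 0.142. With the same-sum scaling Arcn1 was also higher in GcKO, by 1.17 against WT (adjusted p = 0.00243, limma) and 0.97 against AmcKO (adjusted p = 0.0181), and GcKO against MUT was -0.79 (adjusted p = 0.294). Arcn1 (chr9:44741564-44767845) lies 407664 bases from Dpagt1 on the same chromosome, so that a region inherited with the mutation cannot be told apart from it. The other members on chromosome 9, Tmed1, Tmed3, Copb2 and Sec22c, lie 22.8 to 77.3 Mb from Dpagt1.

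Copa and Copb1 were the COPI subunits that rose in both groups. Copa, the alpha subunit, which binds retrieval signals on cargo, was at 1.43, 1.61 and 2.43 FPKM in WT, 4.26, 4.69 and 5.86 in MUT, 9.95, 4.51 and 6.82 in GcKO and 4.09, 2.35 and 2.94 in AmcKO. All MUT and GcKO libraries lay above all WT libraries, while AmcKO overlapped WT. The WT values correspond to about 4, 4 and 7 fragments, and the MUT values to 26, 31 and 32, as the smallest whole numbers that match the steps. The log2 fold change of Copa was 1.08 (SE 0.31, adjusted p = 0.0247, limma) in MUT and 1.48 (SE 0.31, adjusted p = 0.00433) in GcKO. The MUT call held in 8 of 14 alternatives. It was lost after quantile normalization, with the abundance trend removed, and without WT replicate 4 or 5 or MUT replicate 2 or 3. The highest adjusted p with a library left out was 0.0881. The GcKO call held in 13 of 14 and was lost with only the 2 groups compared. Copa shares exon bases with Ncstn on the other strand, and the library preparation is not stated to mark strand. Copb1, the beta subunit, was at 12.3, 11.6 and 14.9 FPKM in WT, 22.3, 19.3 and 19.7 in MUT, 20.8, 21.5 and 22.5 in GcKO and 14.98, 10.4 and 15.3 in AmcKO. All MUT and GcKO libraries lay above all WT and AmcKO libraries. Its log2 fold change was 0.63 (SE 0.20, adjusted p = 0.0364, limma) in MUT and 0.71 (SE 0.20, adjusted p = 0.0213) in GcKO. The MUT call held in 7 of 15 alternatives. It was lost without WT replicate 4 or 5 or any 1 of the MUT libraries. Quantile normalization, removal of the abundance trend and a fit without a variance trend also lost it. The GcKO call held in 14 of 15 and was lost without WT replicate 5, where adjusted p was 0.0511.

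The remaining COPI subunits did not pass the test. Copb2, the beta prime subunit, had 3.45 ± 0.327 FPKM in WT, 5.81 ± 1.82 in MUT, 5.27 ± 1.24 in GcKO and 5.201 ± 0.197 in AmcKO (mean ± SD, n = 3), and its lowest value in each mutant group was above the highest in WT. Of the zeta subunits, Copz1 was at 251 ± 61.8 FPKM in WT and 264 ± 26.3 in MUT. Copz2 was at 51.2 ± 4.50 FPKM in WT, 30.7 ± 14.0 in MUT and 31.9 ± 6.41 in GcKO, with all mutant values of both groups below WT (adjusted p = 0.0874 and 0.143, limma). Copg1, a gamma subunit, ranged from 9.98 to 19.0 FPKM over all libraries with overlapping groups, and its paralogue Copg2 stayed at or below 2.53. Copg2 shares exon bases with Mest on the other strand. Cope, the epsilon subunit, was at 0 in 2 WT libraries, 1 MUT and 1 GcKO library and reached 3.53 FPKM.

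In the COPII step of initiation, Sar1b fell and Sec16a rose in both groups under the deposited scaling. Sar1b, the GTPase that starts the coat, was at 601, 603 and 553 FPKM in WT, 308, 292 and 292 in MUT, 212, 318 and 378 in GcKO and 417, 519 and 357 in AmcKO. Every mutant value lay below every WT value. Its log2 fold change was -0.97 (SE 0.20, adjusted p = 0.00338, limma) in MUT and -0.99 (SE 0.20, adjusted p = 0.00305) in GcKO, but 0.02 and 0.05 once libraries had equal sums (adjusted p = 0.914 and 0.771) and -0.09 and -0.02 after quantile normalization. Sar1b starts 53 bases from Sec24a, which is read in the other direction and did not pass the test. Its paralogue Sar1a made up 0 to 1.41% of the FPKM of the pair in any library.

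Sec16a, the scaffold of ER exit sites, was at 3.32, 2.92 and 1.79 FPKM in WT, 6.78, 8.10 and 4.06 in MUT, 7.26, 7.19 and 7.75 in GcKO and 4.69, 4.41 and 4.73 in AmcKO. The highest WT library lay below the lowest of every other group. The log2 fold change was 0.97 (SE 0.28, adjusted p = 0.0238, limma) in MUT and 1.22 (SE 0.28, adjusted p = 0.00727) in GcKO, and the difference in AmcKO was 0.63 with adjusted p = 0.299. Without WT replicate 6, MUT replicate 1 or MUT replicate 2 the MUT call was lost, with a highest adjusted p of 0.0917. That call held in 9 of 15 alternatives. Quantile normalization, removal of the abundance trend and a fit of only the 2 groups compared also lost it. The GcKO call held in 14 of 15 and was lost with the abundance trend removed. Sec16b, its paralogue, stayed at or below 1.88 FPKM, and Preb, the Sar1 exchange factor, at or below 2.64.

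The inner coat held 6 members, of which Sec23a had the highest level and 1 rose. Sec24d, a cargo adaptor, was at 0, 0.491 and 0 FPKM in WT, 1.60, 2.21 and 2.23 in MUT, 1.60, 1.496 and 0.554 in GcKO and 0.276, 1.56 and 0.223 in AmcKO. These correspond to about 0, 1 and 0 fragments in WT and 8, 12 and 10 in MUT. It rose by 1.39 (SE 0.36, adjusted p = 0.0143, limma) in MUT and had 0.92 with adjusted p = 0.0865 in GcKO. The MUT call held in 11 of 14 alternatives. It was lost without MUT replicate 3 (adjusted p = 0.0507), after quantile normalization and with the abundance trend removed. Sec24c was at 0.537 ± 0.466 FPKM in WT, 1.83 ± 0.747 in MUT and 1.51 ± 0.210 in GcKO (n = 3), with adjusted p = 0.0802 and 0.14. Sec24a was at 1.88 ± 0.681, 1.13 ± 0.249 and 2.46 ± 0.273 FPKM in the same groups, and Sec24b at 2.496 ± 1.63, 3.47 ± 0.993 and 2.84 ± 0.967. Sec24c and Sec24d, which form the other branch of the Sec24 family beside Sec24a and Sec24b, together made up 0, 17.6 and 15.2% of the Sec24 FPKM in WT, 43.2, 44.8 and 48.5% in MUT, 36.5, 34.5 and 30.2% in GcKO and 18.8, 31.7 and 24.8% in AmcKO. All mutant libraries lay above all WT libraries in this share, which was formed after the values were seen and has no test. Of the Sec23 GTPase activators, Sec23a was at 12.9 ± 3.78 FPKM in WT and 15.2 ± 1.87 in MUT, and Sec23b at 0.241 ± 0.417 and 0.992 ± 0.244. Sec23b had a log2 fold change of 1.01 in GcKO with adjusted p = 0.0523.

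In the outer coat, Sec31a rose in both groups. Sec31a was at 1.57, 4.89 and 2.67 FPKM in WT, 6.15, 10.0 and 12.3 in MUT, 10.5, 8.58 and 5.26 in GcKO and 5.00, 4.25 and 4.04 in AmcKO. WT replicate 5 was the highest WT library and was exceeded by all MUT and GcKO libraries and by 1 of AmcKO. The fold changes were 1.41 (SE 0.35, adjusted p = 0.0113, limma) and 1.21 (SE 0.35, adjusted p = 0.0247) on the log2 scale. The MUT call was lost without WT replicate 4 or MUT replicate 2 or 3, with a highest adjusted p of 0.0683. The GcKO call was lost without WT replicate 4 or 6 or GcKO replicate 1 or 2 (highest adjusted p = 0.119). The calls held in 10 and 8 of 15 alternatives. Both were also lost with the abundance trend removed or only the 2 groups compared, and the GcKO call after quantile normalization. Sec13, its partner in the cage, which also serves in the nuclear pore, was at 42.2 ± 11.4 FPKM in WT, 58.7 ± 9.71 in MUT, 59.6 ± 8.99 in GcKO and 51.6 ± 4.30 in AmcKO (n = 3), and its groups overlapped.

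Among the Sec22 proteins, the most abundant member fell while the others rose in MUT. Sec22a, a relative of Sec22b, was at 249.9, 218 and 230.1 FPKM in WT, 100.5, 114 and 101 in MUT, 80.1, 127 and 143 in GcKO and 210.3, 231 and 192 in AmcKO. MUT and GcKO lay below all WT and AmcKO libraries. The log2 fold change was -1.14 (SE 0.19, adjusted p = 0.00108, limma) in MUT and -1.02 (SE 0.19, adjusted p = 0.00209) in GcKO, and under the same-sum scaling -0.15 and 0.01 (adjusted p = 0.363 and 0.992). Sec22b, the SNARE itself, was at 26.3, 33.1 and 21.5 FPKM in WT, 42.9, 45.9 and 46.5 in MUT, 31.1, 37.3 and 29.8 in GcKO and 49.8, 25.7 and 39.4 in AmcKO. MUT lay above WT and GcKO but within the range of AmcKO. It rose by 0.74 (SE 0.23, adjusted p = 0.0361, limma) in MUT, a call that was lost without WT replicate 4 or 6 or any 1 MUT library (highest adjusted p = 0.126). This call held in 8 of 15 alternatives, and was also lost with no filter and without a variance trend. Sec22c, another relative of Sec22b, was at 0.290, 0 and 0 FPKM in WT, 1.20, 0.861 and 1.34 in MUT, 1.31, 0.889 and 0.740 in GcKO and 0.185, 0.174 and 0.895 in AmcKO. That is about 1, 0 and 0 fragments in WT and 9, 7 and 9 in MUT. Its log2 fold change in MUT was 0.96 (SE 0.29, adjusted p = 0.0324, limma), and the call was lost without WT replicate 5 or 6 or MUT replicate 1 or 3 (highest adjusted p = 0.0677). The call held in 8 of 14 alternatives, and was also lost after quantile normalization and with the abundance trend removed.

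The share of a paralogue within its family, from the deposited FPKM, is unaffected by a single scaling factor per library, but not by quantile normalization, which moves genes by their level. Sec22b made up 9.50, 13.2 and 8.56% of the Sec22 FPKM in WT, 29.7, 28.6 and 31.3% in MUT, 27.6, 22.5 and 17.1% in GcKO and 19.1, 10.0 and 16.9% in AmcKO. All MUT and GcKO libraries lay above WT. The share was 19.4 points higher in MUT than in WT and 12.01 points higher in GcKO, each with p = 0.1 in a two-sided exact permutation test (n = 3 per group), the smallest that 3 against 3 libraries allow, and a Benjamini-Hochberg adjusted value of 0.54 over 36 comparisons. Copz2 made up 15.1 to 20.3% of the zeta pair in WT and 7.72 to 15.7% in MUT (exact permutation p = 0.2). Copb2 took 20.4 to 21.5% of the FPKM of Copb1 and Copb2 in WT and 25.04 to 34.1% in AmcKO, while MUT (16.4 to 28.9%) and GcKO (15.2 to 23.0%) spanned the WT values. Copg2 and Sec23b had shares whose ranges overlapped between WT and each mutant group.

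**Figure D4:**
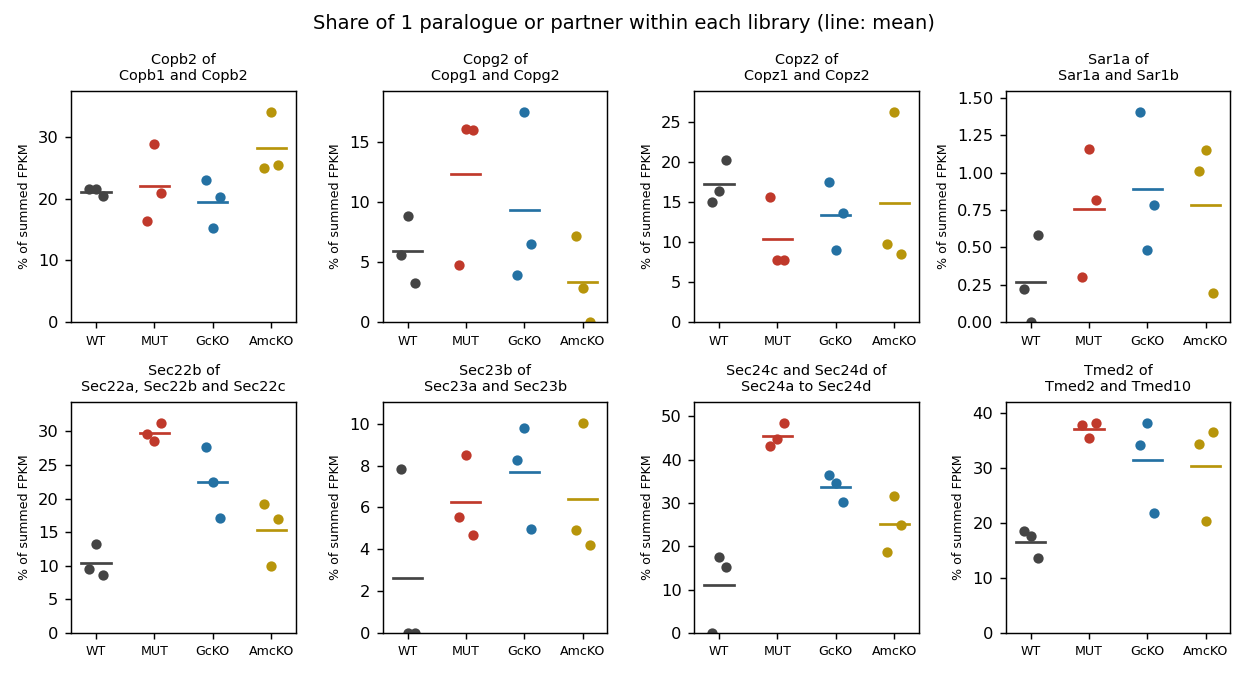
Share of a paralogue or partner in the summed FPKM of its family, in percent, for each library (points) and the mean of each group (lines), where each panel has its own axis from 0. The Sec22b share is 28.6 to 31.3% in MUT and 8.56 to 13.2% in WT, and the shares of Sec24c with Sec24d and of Tmed2 were chosen after their values were seen.

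Of the 11 p24 receptors, 8 were tested, and 2 rose in MUT and 1 fell in GcKO. Tmed2, the sole beta member, was at 23.8, 23.8 and 17.8 FPKM in WT, 54.5, 47.4 and 59.2 in MUT, 33.1, 47.9 and 24.1 in GcKO and 36.9, 22.2 and 48.0 in AmcKO. MUT and GcKO lay above WT, while AmcKO overlapped it. Tmed2 rose by a log2 fold change of 1.27 (SE 0.28, adjusted p = 0.00633, limma) in MUT under the main setting and all 15 alternatives, and had 0.62 with adjusted p = 0.141 in GcKO. Tmed10, the sole delta member, which forms complexes with Tmed2, was at 105, 111 and 114 FPKM in WT, 89.7, 86.7 and 95.9 in MUT, 63.9, 78.1 and 86.5 in GcKO and 71.0, 87.2 and 83.7 in AmcKO. Every mutant library lay below every WT library. Tmed10 fell by 0.54 (SE 0.15, adjusted p = 0.0245, limma) on the log2 scale in GcKO, a call that held in 7 of 15 alternatives. The log2 fold change was 0.49 with adjusted p = 0.0117 after scaling to the same sum, and the call was lost without WT replicate 6 or GcKO replicate 1. Median-of-ratios scaling, quantile normalization and removal of the abundance trend also lost it. So did a fit without a variance trend and a fit of only the 2 groups compared. In MUT the log2 fold change of Tmed10 was -0.27 (adjusted p = 0.23) as deposited and 0.71 (adjusted p = 0.00143) after scaling to the same sum. Tmed10 shares exon bases with the antisense gene Gm47819. Tmed2 made up 18.5, 17.6 and 13.5% of the FPKM of Tmed2 and Tmed10 in WT, 37.8, 35.4 and 38.2% in MUT, 34.2, 38.0 and 21.8% in GcKO and 34.2, 20.3 and 36.5% in AmcKO, a share formed after the values were seen.

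The gamma and alpha p24 members were much lower. Tmed3, a gamma member, was at 4.45, 1.68 and 0 FPKM in WT, 5.48, 9.59 and 8.47 in MUT, 3.04, 5.72 and 0.953 in GcKO and 3.81, 0.903 and 1.55 in AmcKO. These correspond to about 3, 1 and 0 fragments in WT and 8, 15 and 11 in MUT. It rose by 1.83 (SE 0.58, adjusted p = 0.0398, limma) in MUT, but the call held in only 3 of 14 alternatives and was lost without WT replicate 5 or 6 or any 1 MUT library. Tmed9, an alpha member, was at 2.14 ± 2.65 FPKM in WT, 5.30 ± 2.72 in MUT and 6.21 ± 1.27 in GcKO, with adjusted p = 0.154 and 0.0834. Tmed5 had 4.42 ± 1.22 FPKM in WT, 2.80 ± 0.390 in MUT and 2.78 ± 0.829 in GcKO (n = 3). Tmed1, Tmed4 and Tmed7 stayed at or below 2.96 FPKM, and none passed the test. Copg1, Preb, Sec23a, Sec24c, Tmed1 and Tmed5 share exon bases with a gene on the other strand and Tmed7 with Ticam2 on its own, so their values are uncertain to that extent.

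**Figure D5:**
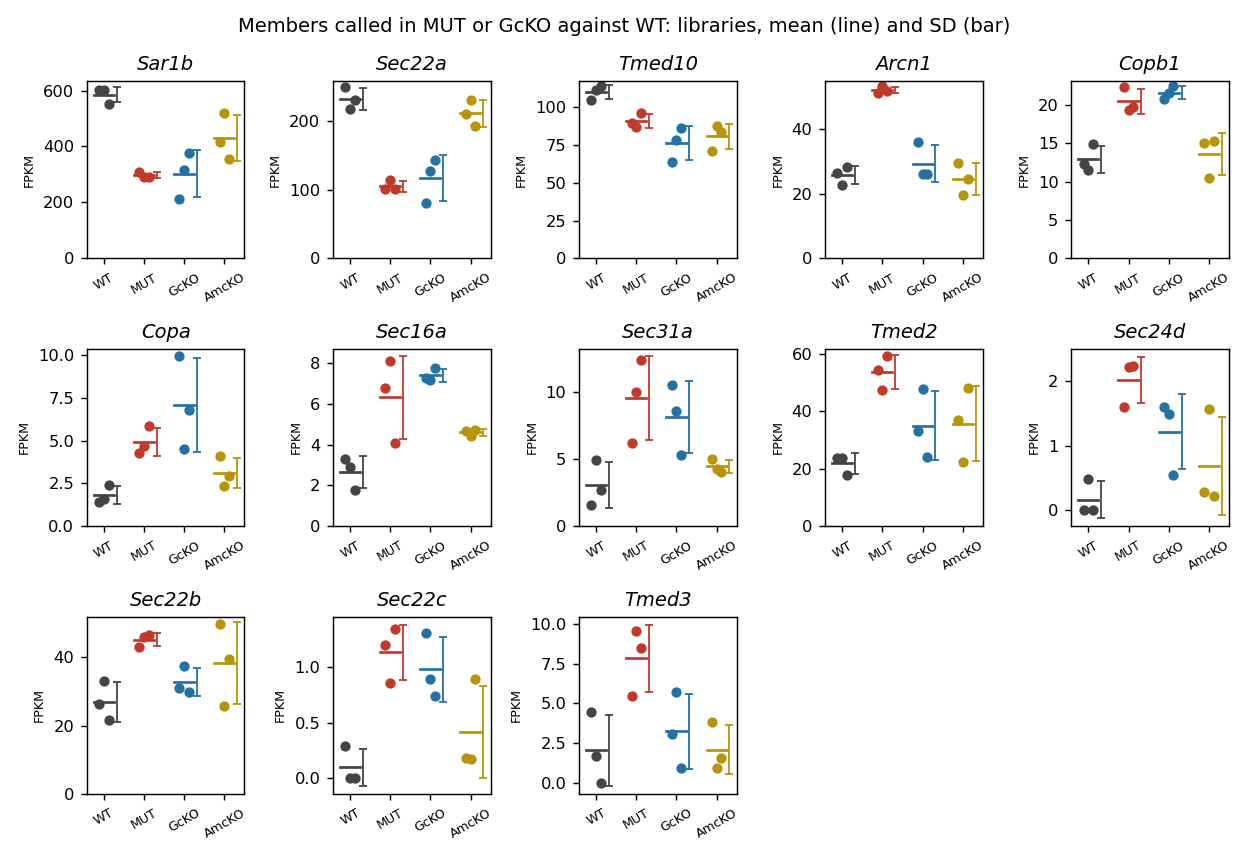
FPKM of each library (points), group mean (line) and SD (bar) for the 13 members called in MUT or GcKO against WT, each panel with its own axis. The 3 MUT points of Arcn1 lie at 51.2 to 53.1 FPKM above all other libraries, and the MUT and GcKO points of Sar1b and Sec22a lie below WT as deposited. Under the same-sum scaling neither Sar1b nor Sec22a was called in MUT or GcKO, and Tmed10 was called higher than WT in both.

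In AmcKO against WT, which asks what changes in oocytes when granulosa cells lose Dpagt1, no member was called in either direction by limma, where 0.0979% of all genes were called higher and 0.116% lower. At an unadjusted p under 0.05 there were 5 of the 33 members, 3 of them higher, where 15.6% of all genes were. The smallest p was that of Tmed10, with a log2 fold change of -0.45 (adjusted p = 0.198). Sec23b followed with 0.88 (adjusted p = 0.249) and Sar1b with -0.46 (adjusted p = 0.291), while Sec22a was at -0.14 (adjusted p = 0.755). The median of the members was 0.32, against 0.03 over all genes. Without overlap, 4 members lay above WT and 2 below, where 9.22% and 8.61% of all genes did.

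Between the mutant groups, GcKO and MUT differed in no member by limma, where 0.0712% of all genes were called higher in GcKO and 0.134% lower. At an unadjusted p under 0.05 there were 2 of the 33, Arcn1 and Tmed2, both lower in GcKO, where 6.6% of all genes were. MUT against AmcKO gave Arcn1 as higher (log2 fold change 1.08, adjusted p = 0.00528, limma) and Sec22a as lower (-0.9999, adjusted p = 0.0073), where 1.42% and 5.07% of all genes were called. In GcKO against AmcKO only Sec22a was called, as lower (-0.89, adjusted p = 0.0157, limma), where 0.668% of all genes were called higher and 4.79% lower. The Sec22a differences were -0.30 and -0.15 under the same-sum scaling, with adjusted p = 0.0965 and 0.403. The latter call held in 8 of 15 alternatives and was also lost without AmcKO replicate 4 or 5. Under that scaling 13 members were higher in MUT than in AmcKO and 7 in GcKO, where 21.3% and 21.9% of all genes were, and none was lower, where 1.47% and 1.14% were. After quantile normalization 2 were higher and 1 lower in MUT against AmcKO (1.87% and 2.81% of all genes) and 0 and 0 in GcKO against AmcKO (0.792% and 1.43%). With the abundance trend removed the counts were 1 and 0 (1.15% and 1.83%) and 0 and 0 (0.365% and 0.712%).

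Further genes of the pathway were counted in fixed lists. Of 19 tested genes of ER exit and COPII accessory function, 1 rose and 5 fell in MUT, and likewise in GcKO, with medians of 0.11 and 0.19 against 0.12 and 0.12 over all genes. These counts stand beside 9.46% and 8.71% of all genes called higher in MUT and GcKO and 11.3% and 11.4% lower. After scaling to the same sum the list had 10 higher and 1 lower in MUT and 11 and 2 in GcKO, where 41.3% and 42.4% of all genes were called higher and 2.23% and 2.14% lower, and both sets of shares apply to the other lists too. The cargo receptors Cnih1 and Cnih4, which bring growth factor precursors into COPII vesicles, and the ER membrane chaperones Bcap29 and Bcap31 were among those that fell in both groups. Cnih1 went from 769.9 ± 35.7 FPKM in WT to 314 ± 11.1 in MUT and 387 ± 108 in GcKO, and Bcap29 from 75.0 ± 7.85 to 23.0 ± 1.64 and 30.4 ± 6.81. After scaling to the same sum, the log2 changes of Cnih1 in MUT and GcKO were -0.30 and 0.0068 (adjusted p = 0.0818 and 0.995, limma). Those of Bcap29 were -0.69 and -0.28 (adjusted p = 0.0131 and 0.274). Cnih4 had -0.23 and -0.65 (adjusted p = 0.375 and 0.0203), and Bcap31 had -0.11 and -0.39 (adjusted p = 0.565 and 0.0377). Ctage5, which helps load large cargo, was the 1 riser, at 1.48 ± 0.767 FPKM in WT, 5.86 ± 0.742 in MUT and 8.49 ± 3.68 in GcKO, and was named after its values were seen.

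In the list of the ARF1 cycle and KDEL retrieval, 3 of 13 rose and 1 fell in MUT, and 3 and 2 in GcKO, with medians of 0.42 and 0.17. With the same-sum scaling 8 rose in MUT and 7 in GcKO and none fell. Arf3, a GTPase that recruits COPI, rose from 5.55 ± 0.715 FPKM in WT to 15.4 ± 0.942 in MUT and 14.95 ± 6.21 in GcKO (adjusted p = 0.00751 and 0.012, limma). Kdelr2, a receptor that returns ER proteins, was at 82.3 ± 16.04 FPKM in WT and 69.2 ± 12.3 in MUT, and fell in GcKO to 46.6 ± 11.3 (adjusted p = 0.0212), while the same-sum scaling put MUT 0.74 and GcKO 0.21 above WT on the log2 scale. Of 34 ER-Golgi SNAREs and tethers, 3 rose and 6 fell in MUT and 4 and 5 in GcKO, with medians of -0.03 and 0.03. With the same-sum scaling the counts were 19 higher and 0 lower in MUT and 20 and 1 in GcKO, and the medians 0.73 and 0.78 against 0.71 and 0.74 over all genes. The SNARE Bet1, a partner of Sec22b, went from 638 ± 52.4 FPKM in WT to 273 ± 20.6 in MUT and 254 ± 91.6 in GcKO, and its partner Stx5a from 68.3 ± 16.01 to 147 ± 13.5 and 129 ± 35.9. Both passed the test in both groups, in opposite directions, and with the same-sum scaling Bet1 was at -0.22 and -0.34 (adjusted p = 0.225 and 0.0664) and Stx5a at 2.11 and 1.92.

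For comparison with later steps of the pathway, 2 of 22 COG and clathrin adaptor genes rose and 1 fell in MUT, and 3 and 1 in GcKO, with medians of 0.29 and 0.36. With the same-sum scaling 17 rose and 1 fell in MUT and 18 and 0 in GcKO, with medians of 1.11 and 1.28. Cog8, a subunit of the Golgi tether COG, was listed at 0 in all WT libraries and was at 2.47 ± 0.623 FPKM in MUT, 2.53 ± 0.317 in GcKO and 3.18 ± 0.588 in AmcKO. It was the only gene of the 4 lists called in AmcKO against WT (adjusted p = 0.00536, limma). Ap3s1, of the adaptor to lysosomes, was at 46.2, 50.8 and 53.1 FPKM in WT and fell to 13.7 ± 5.76 in MUT and 27.1 ± 9.74 in GcKO (adjusted p = 0.000993 and 0.0489), and its log2 fold change was -0.92 and 0.08 after scaling to the same sum.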

How the data were processed

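RNA was amplified with Smart-seq2 from 12 libraries of 20 oocytes each. Per the labels and the methods of the study, the authors aligned paired reads of 150 nt to mm10 with TopHat2 2.0.13 and computed FPKM with Cufflinks 2.2.1; the table deposited holds 1 FPKM column per library, and its 18 columns of the authors' own fold changes and tests were not used. FPKM carry no read totals, so the depth per library is known only as relative weights of 1 fragment, read from the steps between low values.

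Members were matched by symbol. Genes with at least 1 FPKM in at least 1 library (11233) were fitted with limma 3.58.1 (R 4.3.3, abundance trend) on log2(FPKM + 1), which understates changes of low genes. All 12 libraries entered 1 fit of 4 groups with 8 residual degrees of freedom, adjusted by Benjamini-Hochberg over all genes tested and called at 0.05. The fit was tested on simulated data. Members called against WT are named with all 12 values, together with their paralogues and at most 4 genes of each list, plus Ctage5, named after its values were seen. Members and lists were chosen with earlier results of these data known. Whole fragments were read for 21 members within a tolerance of 0.15. Shares of paralogues were compared by exact permutation. Coordinates are from GENCODE M21 (GRCm38) and promoters from RefSeq. Alternatives covered the pseudocount, filter, scaling, variance model, groups fitted, fold minimum, pairing by label number and each library left out.

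Labels number WT and AmcKO 4 to 6 and MUT and GcKO 1 to 3, so in MUT and GcKO against WT or against AmcKO a batch with that numbering and the genotype cannot be told apart.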

Additional observations from a re-analysis of the deposited data

Results flagged for a closer look

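Sec22a and Arcn1 differed between mutant groups that were each compared with the same WT libraries, by a test of the difference itself. Arcn1 was 1.08 higher on the log2 scale in MUT than in AmcKO (adjusted p = 0.00528, limma), higher in 3 of 3 MUT libraries, and the call held under all 15 alternatives. Sec22a was lower in MUT than in AmcKO, with a log2 difference of -0.9999 (adjusted p = 0.0073, limma) in 3 of 3 libraries, and lower in GcKO than in AmcKO, with -0.89 (adjusted p = 0.0157). Both Sec22a calls were lost when libraries were scaled to the same sum or the abundance trend was removed. The MUT call held in 13 of 15 alternatives and the GcKO call in 8 of 15. The latter was also lost after quantile normalization, without a variance trend, with only the 2 groups compared and without AmcKO replicate 4 or 5. AmcKO carries label numbers 4 to 6 and MUT and GcKO 1 to 3, so in these comparisons a batch with that numbering and the genotype cannot be told apart.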

How the results depend on the processing

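Scaling was the choice with the widest effect. Scaled to the same sum, the members called higher numbered 21 in MUT, 20 in GcKO, 13 in MUT against AmcKO and 7 in GcKO against AmcKO, and 0 were lower in these 4 comparisons. The medians became 1.14, 1.18, 0.77 and 0.76 in these, and 0.43 in AmcKO against WT. Sar1b moved to 0.021 in MUT and 0.046 in GcKO, and Sec22a to 0.0073 in GcKO. None of these was called (adjusted p = 0.914, 0.771 and 0.992, limma). Tmed10 changed sign, to 0.71 in MUT, 0.49 in GcKO and 0.65 in GcKO against AmcKO (adjusted p = 0.00143, 0.0117 and 0.00863, limma). Quantile normalization gave 6 higher and 1 lower in MUT (median 0.38), 0 lower in GcKO, 2 higher in MUT against AmcKO and 0 lower in GcKO against AmcKO. Removal of the abundance trend, chosen after seeing the data, gave 5 higher and 0 lower in MUT (median 0.25), 0 lower in GcKO (median 0.38), 0 lower in MUT and in GcKO against AmcKO (median 0.04 in the latter) and a median of 0.27 in AmcKO against WT. Median-of-ratios scaling gave a GcKO median of 0.57 and 1 higher in GcKO against AmcKO. A mean of at least 5 FPKM, which tests fewer genes, left 6 higher in MUT (median 0.37) and gave 2 higher in MUT and 1 in GcKO against AmcKO, with medians of 0.23 in GcKO and 0.18 in AmcKO against WT and -0.039 in GcKO against AmcKO. A pseudocount of 0.1 gave 7 higher in GcKO and medians of 0.86, 0.64 and 0.54 in MUT, GcKO and AmcKO against WT and 0.26 in GcKO against AmcKO. A fold change over 2 left 5 higher and 1 lower in MUT, 1 lower in GcKO, and 0 lower in MUT and in GcKO against AmcKO. With only the 2 groups compared, 0 were lower in GcKO and in GcKO against AmcKO, and without a variance trend 0 in the latter. Apart from the alternatives built on fewer genes or samples, the cause was not tested. The share of all genes called was computed only for the main, same-sum, quantile and trend-removed settings. Counts under the other settings therefore cannot be set against the background.

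Leaving out each library in turn, 3 to 7 members were higher in MUT and 3 to 7 in GcKO, and 0 to 2 lower in GcKO against AmcKO. The share of all genes called was not computed with a library left out, so these counts cannot be set against the background. The medians ranged from 0.38 to 0.72 in MUT, 0.29 to 0.56 in GcKO, 0.19 to 0.46 in AmcKO, 0.060 to 0.18 in MUT against AmcKO and 0.10 to 0.30 in GcKO against AmcKO. Without MUT replicate 3, 2 or 1 the higher members in MUT were 3, 4 and 5, and without WT replicate 4 or 5 they were 6. Same-numbered libraries did not deviate together (correlations from -0.041 to 0.041), so the numbers were not taken to pair them. With the replicate block, 0 members were higher and 0 lower in AmcKO against WT and in GcKO against MUT, as without it. MUT and GcKO share no label number with WT. With WT fragments of greater weight, members at a few fragments in WT (Sec24d, Sec22c, Tmed3 and Copa) are the least precise.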
